A study of Oryza sativa with 72 samples.

Results

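Irrigated rice plants harvested at day 9 were compared with irrigated rice plants harvested at day 6, in leaves of the indica cultivar IR64. The comparison rests on 12 of the 72 libraries of the series, chosen by label alone: the controls of the severe drought treatment at day 9 in the latest leaf, at day 6 in the latest leaf, at day 9 in the second latest leaf and at day 6 in the second latest leaf, with 3 libraries each. All 55986 lines of the count table were considered. The wider study took plants through 9 days of severe drought, imposed from 14 days after sowing by raising the pots so that they drained, and 6 days of rewatering. Controls were irrigated throughout, so neither the day 9 nor the day 6 plants compared here had water withheld. The plants carried no transgene or mutation named in the labels, and each grew in its own pot of calcined clay in a growth chamber with 14 h of light a day. Both leaf positions were fully expanded, and the labels name them by position and not by leaf number. The 24 other control libraries were from day 0, 2 h after watering resumed in the treated plants, and rehydration days 3 and 6. They were fitted together with the 12 and share in the spread behind the calls. They also gave context, as did the 11 usable treated libraries of day 9 and day 6. The twelfth treated library, replicate 2 of day 9 in the latest leaf, held 1755 counts and was left out.

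A fully expanded rice leaf is a mature source organ, in which transcripts of photosynthesis and carbon metabolism make up much of the RNA. Leaf transcript levels are known to differ with leaf age and position, with light and the hour of the day, and with the water and nutrient supply of the plant. Irrigated controls harvested beside each drought stage give the level against which a drought response is read. Day 9 plants were 3 days older than day 6 plants and were harvested on another occasion. Day 9 against day 6 alone cannot tell the effects of age and of harvest apart. The labels place the 2 h controls at rehydration day 0, after the 9 days of drought, and so near the age of day 9 plants. Their calls against day 6 and against day 9 are given below, and the part of age was not tested. The labels give no hour of harvest. The lines of the count table carry no gene identifier, so each is called a feature and named by its place in the table, and no gene name, sequence or function can be attached to the values. For the same reason the leaf identity of the samples could not be checked against marker genes.

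Total counts lay between 7979997 and 24192248 in the 12 libraries (median 13399685.5). A count above 0 was found for between 24103 and 28021 features per library. A count of 3, the limit that a count of 0 allows, corresponded to 0.124 to 0.376 CPM (counts relative to the library total), which covers counting error only. The CPM of single features given below also use the scaling factors, so this limit is not on exactly their scale. Of all features, 19321 were at 0 in the 12 libraries and 36665 had a count. The low-count filter kept 20894 features for testing, and these held 99.9% of the counts. The scaling factors (TMM, the trimmed mean of M values) of day 9 controls were 0.776, 0.862 and 0.721 in the latest leaf, against 0.901, 1.02 and 1.02 in day 6 controls, and they were 0.899, 0.988 and 0.925 at day 9 in the second latest leaf, against 1.03, 1.10 and 1.10 at day 6. The 100 most abundant features took 38.3% ± 4.65 of the counts at day 9 and 31.4% ± 3.06 at day 6 in the latest leaf (SD, n = 3 each, two-sided exact permutation p = 0.2). The share was 31.3% ± 1.65 at day 9 and 28.2% ± 1.76 at day 6 in the second latest leaf (SD, n = 3 each, exact permutation p = 0.2). With 3 libraries against 3 the smallest p that this test can give is 0.1. The part of these differences in the results below was not tested, beyond the other scaling methods described with the processing.

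In the latest leaf, 5563 of the 20894 tested features (26.6%) differed between day 9 and day 6 controls at a Benjamini-Hochberg adjusted p under 0.05 in edgeR's quasi-likelihood test, and such features are referred to as called. Of these, 2770 (13.3%) were higher at day 9 and 2793 (13.4%) were lower, so the changes split almost evenly. The median fitted log2 fold change, day 9 over day 6, was 0.90 among the higher features and -0.85 among the lower ones, beside a median of 0.00 over all tested features. At least 2-fold changes were fitted for 1207 higher and 1134 lower features (2341 in all, 11.2%). Beyond 4-fold, the higher features outnumbered the lower ones, with 426 against 256, and beyond 16-fold there were 61 and 36. The day 9 libraries and the day 6 libraries did not overlap for 2410 of the 2770 higher features and for 2440 of the 2793 lower ones. Over all tested features, called or not, 7262 (34.8%) did not overlap. An unadjusted p under 0.05 was reached by 7739 features. A fit of only the 6 libraries of this leaf, without the spread shared with the other control groups, called 2762 features.

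In the second latest leaf, 3771 features (18.0%) were called. There were 1987 higher at day 9 (9.51%) and 1784 lower (8.54%). The median log2 fold changes were 0.87 among the higher and -0.90 among the lower features, close in size to those of the latest leaf, beside -0.01 over all tested features. At least 2-fold changes were fitted for 842 higher and 742 lower features (1584 in all, 7.58%). Beyond 4-fold there were 297 higher and 165 lower features, and beyond 16-fold 36 and 22. The libraries of the days did not overlap for 1869 of the 1987 higher and 1601 of the 1784 lower features, beside 6388 (30.6%) of all tested features. Without replicate 2 of the day 6 controls the number called was 2399, and in a fit of only the 6 libraries of this leaf it was 2206.

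The direction of change was shared between the leaf positions. Of the 6614 features called in either leaf, 2718 were called in both with the same sign, 1545 of them higher and 1173 lower at day 9, and 2 were called with opposite signs. The 1545 shared rises were 55.8% of the higher list of the latest leaf and 77.8% of that of the second latest leaf. The 1173 shared falls were 42.0% and 65.8% of the lower lists of these leaves. Among features called higher only in the latest leaf, 1095 of 1223 (89.5%) had a positive log2 fold change in the second latest leaf too, with a median of 0.73 in the latest and 0.28 in the second latest leaf. Among those called lower only in the latest leaf, 1428 of 1620 (88.1%) were also negative in the second latest leaf, with medians of -0.71 in the latest and -0.26 in the second latest leaf. The features called only in the second latest leaf kept their sign in the latest leaf in 416 of 442 cases (94.1%) for the higher and 566 of 609 cases (92.9%) for the lower ones. Over all 20894 features, 15624 (74.8%) had the same sign in both leaves, and the log2 fold changes correlated with Pearson's r = 0.704 and Spearman's rho = 0.663, a description across features, which are not independent replicates. The leaves share no library, but both were harvested on the same days, and the labels do not state whether they came from the same plants.

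**Figure D1:**
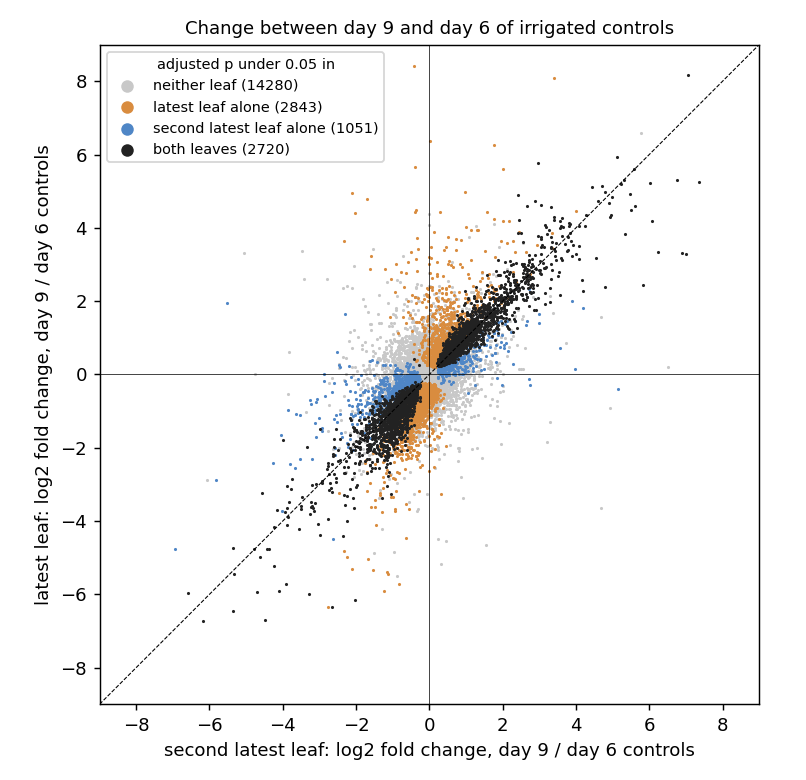
Each point is 1 of 20894 tested features, with the log2 fold change of day 9 over day 6 controls in the second latest leaf on the horizontal axis and that in the latest leaf on the vertical axis, coloured by the leaf in which it was called. The 2718 features called in both leaves with the same sign lie in the upper right and lower left, and 2 features were called with opposite signs.

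Changes were somewhat larger in the latest leaf. The standard deviation of the log2 fold changes over all tested features was 0.871 in the latest leaf and 0.757 in the second latest leaf, a ratio of 1.15, and the median absolute change was 0.348 in the latest and 0.284 in the second latest leaf. The spread between replicates also differed: the root mean square of their standard deviations in log2 CPM was 0.542 at day 9 and 0.383 at day 6 in the latest leaf, and 0.387 at day 9 and 0.431 at day 6 in the second latest leaf. Its part in the wider range of fold changes was not tested. The absolute change was larger in the latest leaf for 11959 features (57.2%). Among the 1545 shared rises, it was larger in the latest leaf for 858 (55.5%), with medians of 1.02 in the latest and 0.98 in the second latest leaf. Among the 1173 shared falls, it was larger in the latest leaf for 773 (65.9%), with medians of -1.11 in the latest and -0.93 in the second latest leaf. These counts over features carry no test.

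The test of the difference itself, the change in the latest leaf minus the change in the second latest leaf, called 0 features in edgeR. In that test 1718 features (8.22%) had an unadjusted p under 0.05. With the same 36 libraries DESeq2 called 11 and edgeR without the low-count filter called 256. With a block that joined same-numbered libraries of the leaves within a day, edgeR called 2. In the main edgeR fit the smallest unadjusted p was 3.26e-05 and the smallest adjusted p was 0.254. The median standard error of the difference was 0.307 on the log2 scale, larger than that of the change in either leaf. Leaving out replicate 2 of the day 9 controls in the latest leaf brought the number called to 173, with 21 larger and 152 smaller values in the latest leaf, and leaving out replicate 1 of the day 9 controls in the second latest leaf brought it to 1. Same-numbered libraries of the leaves deviated from their group means together in part, with correlations of 0.0974 to 0.353 at day 9 and 0.187 to 0.308 at day 6, and neither this contrast without the block nor the counts shared by the leaves allow for it.

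Among the 3 features with the smallest p for the difference between leaves, chosen after their values were seen, feature 9084 was the most abundant. It had 62.5, 78.1 and 59.6 CPM in day 9 controls of the latest leaf, against 159, 176 and 182 CPM in day 6 controls. The second latest leaf had 144, 119.6 and 189 CPM in day 9 controls, against 177, 199 and 184 CPM in day 6 controls. All 3 day 9 libraries lay below all 3 day 6 libraries in the latest leaf (log2 fold change -1.37), whereas the days overlapped in the second latest leaf (-0.31, edgeR adjusted p = 0.164). The difference between the leaves was -1.06 on the log2 scale (SE 0.216, edgeR adjusted p = 0.254). Feature 5180 had 1.53, 1.45 and 1.17 CPM at day 9 in the latest leaf, against 5.26, 7.17 and 4.96 CPM at day 6. Its values in the second latest leaf were 2.58, 3.96 and 4.46 CPM at day 9, against 4.86, 6.34 and 5.50 CPM at day 6. It was lower at day 9 without overlap in both leaves, and the difference between the leaves was -1.44 (SE 0.293, edgeR adjusted p = 0.254).

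Calls in opposite directions were made for 2 features. Feature 10375 had 5.10, 6.11 and 5.85 CPM in day 9 controls of the latest leaf, against 3.60, 4.35 and 4.76 CPM in day 6 controls. Its values in the second latest leaf were 4.28, 4.31 and 3.72 CPM in day 9 controls, against 4.71, 5.38 and 6.51 CPM in day 6 controls. Day 9 was thus above day 6 in the latest leaf and below it in the second latest leaf, with no overlap in either (log2 fold changes 0.42 and -0.42, SE 0.148 and 0.146, edgeR adjusted p = 0.0358 and 0.0423). The difference of 0.84 (SE 0.208) did not pass the edgeR test over all features (unadjusted p = 0.000356, adjusted p = 0.295). Feature 39535 had 50.8, 40.9 and 47.9 CPM at day 9 and 38.7, 41.1 and 36.5 CPM at day 6 in the latest leaf, where the days overlapped. The second latest leaf had 29.9, 31.5 and 30.6 CPM at day 9 and 36.4, 42.9 and 32.7 CPM at day 6, without overlap. Its difference between the leaves was 0.55 (SE 0.139, edgeR adjusted p = 0.295). Feature 10375 was called in neither leaf by DESeq2 (adjusted p = 0.0768 and 0.0919), and neither feature was called in either leaf in a fit of the compared libraries alone (edgeR adjusted p from 0.185 to 0.238). Neither feature was called in treated plants in either leaf.

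How often a feature was called depended on its abundance. When the tested features were divided into 4 classes of equal size by mean CPM, with boundaries at 2.68, 11.3 and 34.8 CPM, the share called in the latest leaf was 14.8%, 26.1%, 29.8% and 35.8% from the lowest to the highest class. For the second latest leaf it was 9.19%, 18.2%, 19.3% and 25.6%. The median absolute log2 fold change of the called features ran the other way, at 1.91, 1.05, 0.68 and 0.64 in the latest leaf and 1.74, 0.99, 0.71 and 0.68 in the second latest leaf. Only larger changes can be called at low counts, and the lowest class reaches down to 0.103 CPM. The balance of directions differed with abundance: in the highest class 1037 features were called higher and 832 lower in the latest leaf, and 849 higher and 487 lower in the second latest leaf. In the class above the lowest the falls outnumbered the rises, with 575 higher and 787 lower in the latest leaf and 400 higher and 549 lower in the second latest leaf.

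Features at 0 on 1 of the days had few counts on the other. In the latest leaf 88 features had at least 1 count in every day 9 control library and 0 in every day 6 control library, and 123 showed the reverse. These numbers were 152 and 57 in the second latest leaf. When at least 10 counts were asked of each library on the day of presence, 0 features were left in either direction and either leaf. Feature 3592 had the highest fitted log2 fold change among the features called in the latest leaf and was singled out for that. It had 21, 4 and 75 counts at day 9 (1.34, 0.582 and 6.75 CPM) and 0 in all 3 libraries at day 6 in that leaf. Its fitted value depends on the prior count and is not given as a bound.

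The first principal component of the 12 libraries, computed from log2 CPM with a prior count of 2, took 41.8% of the variance and separated the days in both leaves. In the latest leaf the day 9 controls lay at 76.1, 58.7 and 74.7, against -13.4, -39.3 and -47.4 for the day 6 controls. Day 9 controls of the second latest leaf lay at 36.9, 24.0 and 9.60, against -40.8, -71.7 and -67.5 for the day 6 controls. Within each leaf the days did not overlap, and the day 9 libraries of the latest leaf lay above those of the second latest leaf, while the leaves overlapped at day 6.

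Set against the remaining control stages, day 9 stood apart and day 6 did not. Every pair of control stages that included day 9 had more called features than any pair without it. For the latest leaf the numbers were 5604 against day 0 (26.8%) and 5563 against day 6 (26.6%), and later stages set against day 9 gave 4674 at 2 h (22.4%), 4938 at rehydration day 3 (23.6%) and 5751 at rehydration day 6 (27.5%). For the second latest leaf they were 4593 (22.0%) and 3771 (18.0%) against days 0 and 6, and 3388 at 2 h (16.2%), 5220 at rehydration day 3 (25.0%) and 4452 at rehydration day 6 (21.3%) against day 9.

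The pairs without day 9 had far fewer. Against day 6, the latest leaf had 2 called features at 2 h (0.00957%), 2 at rehydration day 3 (0.00957%) and 46 at rehydration day 6 (0.220%), and the second latest leaf had 0, 170 (0.814%) and 77 (0.369%) at these stages. Day 6 against day 0 gave 0 calls in edgeR for the latest leaf, with 1495 features at an unadjusted p under 0.05, and 1 (0.00479%) for the second latest leaf. The 0 calls at 2 h against day 6 in the second latest leaf stood beside 1296 features with an unadjusted p under 0.05 in edgeR. Against day 0, the latest leaf had 56 at 2 h (0.268%), 275 at rehydration day 3 (1.32%) and 1638 at rehydration day 6 (7.84%), and the second latest leaf had 374 (1.79%), 501 (2.40%) and 1950 (9.33%). Among the rewatering stages themselves, rehydration day 6 against 2 h gave 33 (0.158%) in the latest and 13 (0.0622%) in the second latest leaf, and rehydration day 3 against 2 h gave 0 in the latest leaf (1109 with an unadjusted p under 0.05 in edgeR) and 390 (1.87%) in the second latest leaf. Rehydration day 6 against rehydration day 3 gave 0 in both leaves, with 1971 and 2386 features at an unadjusted p under 0.05 in edgeR. The pairs share libraries, so the numbers that include day 9 are not independent of each other.

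**Figure D2:**
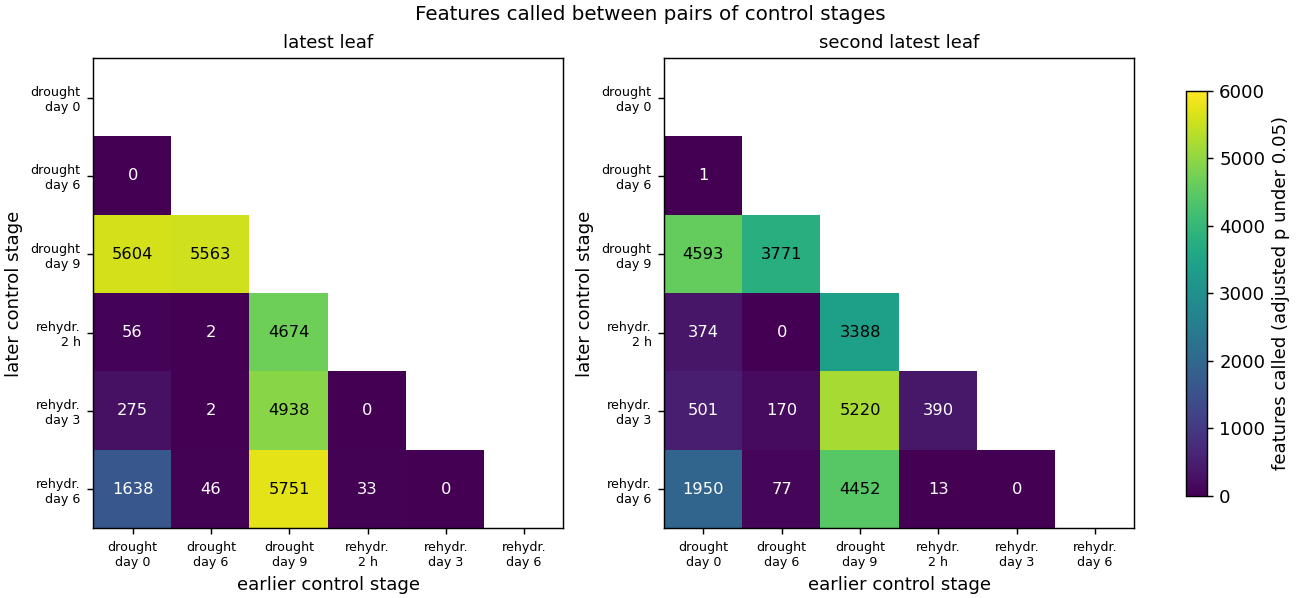
Number of features called between each pair of control stages (earlier stage across, later stage down) for both leaf positions, each stage with 3 libraries. The pairs that include day 9 hold 4674 to 5751 features in the latest leaf and 3388 to 5220 in the second latest leaf, and all pairs without day 9 hold at most 1638 and 1950.

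The same was seen feature by feature. In the latest leaf, 1467 of the 2770 features called higher (53.0%) were above all 15 other control libraries of that leaf in every day 9 library, and 1248 of the 2793 called lower (44.7%) were below all 15. These numbers were 1336 of 1987 (67.2%) and 971 of 1784 (54.4%) in the second latest leaf. Day 6 libraries, by contrast, were below all 15 others for 19 of the 2770 higher and above all 15 for 16 of the 2793 lower features in the latest leaf, and for 6 and 11 features in the second latest leaf. The features had been chosen by the difference between day 9 and day 6, so these counts describe which of the days was away from the rest and carry no test. The 15 libraries include those of the other compared day, from which the choice itself favours separation. The share over all tested features was not counted, so the percentages have no background beside them.

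The 2718 features called in both leaves with the same sign were followed over the 6 control stages, each relative to its own mean over the 4 stages other than days 6 and 9. In the latest leaf the 1545 shared rises had median log2 differences of -0.06 at day 0, -0.05 at day 6, 0.97 at day 9, 0.04 at 2 h, 0.02 at rehydration day 3 and 0.01 at rehydration day 6. The medians in the second latest leaf, in the same order, were -0.00, -0.05, 0.89, 0.02, -0.02 and 0.00. The middle 50% of the rises spanned 0.59 to 1.54 at day 9 in the latest leaf and 0.56 to 1.54 in the second latest leaf. The 1173 shared falls had medians of 0.03, 0.07, -1.0, 0.01, -0.00 and -0.02 in the latest leaf, and of 0.05, 0.06, -0.82, -0.01, 0.00 and -0.03 in the second latest leaf. Day 6 was within 0.07 of the other stages in each of these medians, and by the 2 h harvest the medians were again within 0.04. The features had been chosen by the difference between day 9 and day 6, so the direction of that gap follows from the choice. The medians describe the sets and carry no test. Over all tested features the day 9 medians were -0.02 in the latest and -0.01 in the second latest leaf.

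**Figure D3:**
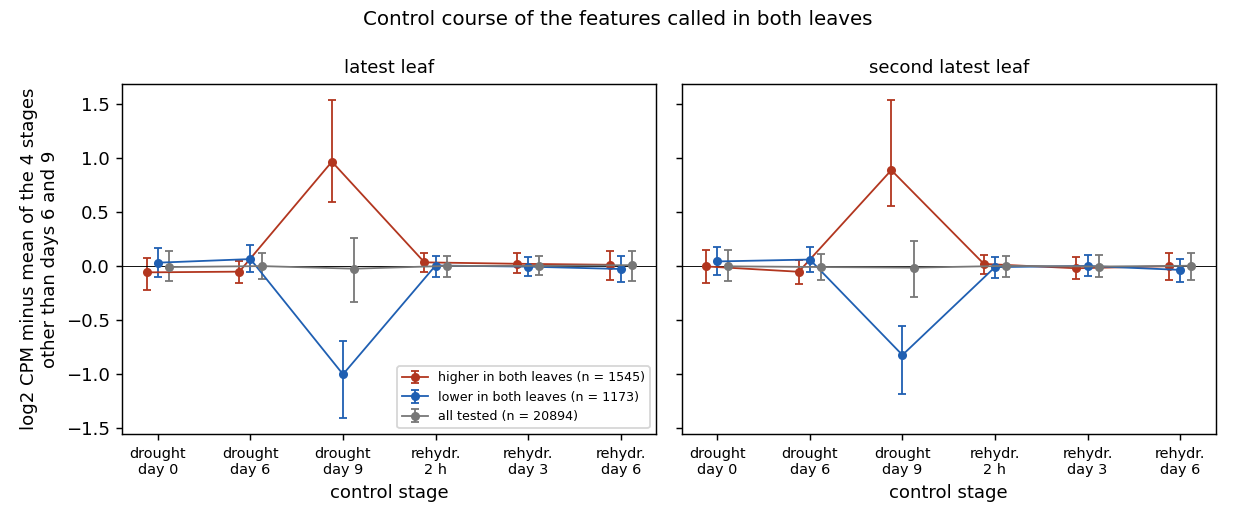
Median log2 CPM of the 1545 shared rises and 1173 shared falls at each control stage, minus the mean of the 4 stages other than days 6 and 9, with bars from the first to the third quartile over features. In the latest leaf day 9 lies near 1 above or below the other stages (0.97 and -1.0). It lies slightly less far in the second latest leaf (0.89 and -0.82), and all other stages lie near 0 in both leaves. The features were chosen by the difference between day 9 and day 6, so the direction of that gap follows from the choice.

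To score libraries with lists from a contrast of other libraries, the features called in 1 leaf were read in the other. Libraries of both leaves were in the fit behind these calls and share in its spread. The leaves are not independent, since same-numbered libraries were correlated within a day as given above. The score of a library is its mean log2 CPM over the features called higher minus that over the features called lower in the other leaf, given relative to the mean of the 4 stages other than days 6 and 9. Latest leaf libraries, scored with the list of the second latest leaf, had 2.18, 2.01 and 1.63 at day 9 (mean 1.94 ± 0.279, SD, n = 3) and 0.20, -0.11 and -0.31 at day 6 (mean -0.07 ± 0.259, SD, n = 3). Second latest leaf libraries, scored with the list of the latest leaf, had 1.66, 1.43 and 1.13 at day 9 (mean 1.41 ± 0.266, SD, n = 3) and 0.22, -0.19 and -0.17 at day 6 (mean -0.05 ± 0.233, SD, n = 3). Day 9 was above day 6 in every library, by 2.02 in the latest leaf and 1.45 in the second latest leaf, more than the spread between replicates. The other 4 stages had mean scores between -0.14 and 0.06. The lists of the leaves differ, so the scores of the leaves are not on 1 scale.

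**Figure D4:**
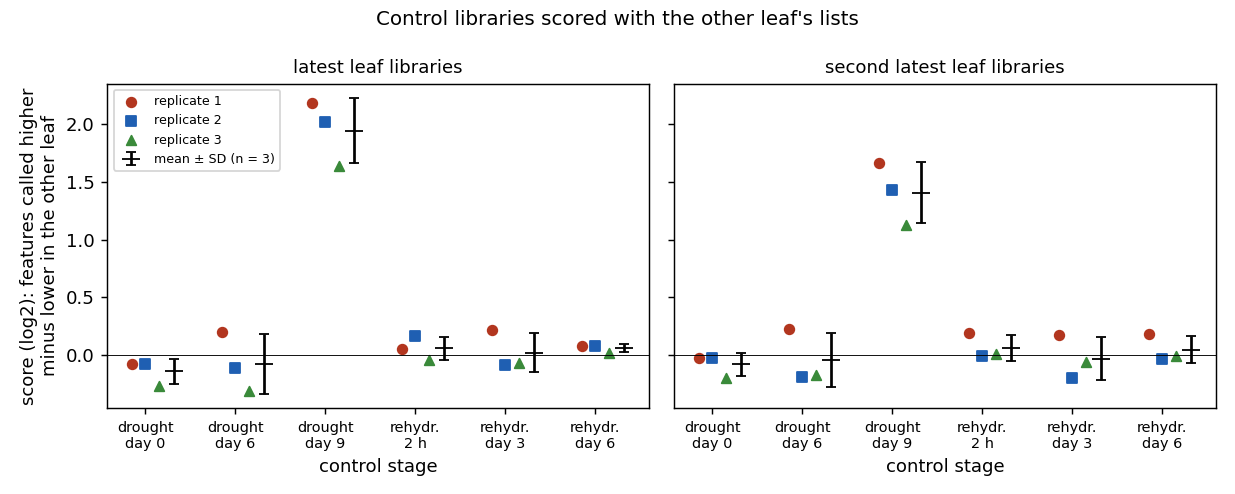
Score of each control library (features called higher minus features called lower between day 9 and day 6 in the other leaf, log2 units) at 6 stages, with replicates as symbols and the mean ± SD of 3 libraries beside them. Day 9 libraries lie between 1.63 and 2.18 in the latest leaf and between 1.13 and 1.66 in the second latest leaf, whereas all other libraries lie between -0.31 and 0.22.

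The largest shared rises were named by a rule that asked for a call in both leaves, no overlap of the days in either leaf and a mean of at least 10 CPM in the higher group. It left 1132 rises, from which the 8 with the largest change in their less changed leaf were taken. Feature 38938 came first. It had 183, 162 and 70.9 CPM in day 9 controls of the latest leaf, against 4.03, 2.62 and 1.69 CPM in day 6 controls. The second latest leaf had 126, 96.3 and 50.0 CPM at day 9, against 2.16, 2.28 and 1.01 CPM at day 6. Every day 9 library was far above every day 6 library, with log2 fold changes of 5.61 (SE 0.46, edgeR adjusted p = 9.45e-10) in the latest leaf and 5.58 (SE 0.478, edgeR adjusted p = 4.07e-09) in the second latest leaf. In the 12 control libraries of the other stages it lay between 2.26 and 5.93 CPM in the latest leaf and between 1.27 and 5.23 CPM in the second latest leaf, so day 9 was the only control stage at which it was high.

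Feature 32349 was the most abundant of the 8 in the second latest leaf. It had 710.5, 346 and 287 CPM in day 9 controls of the latest leaf, against 20.6, 8.07 and 4.66 CPM in day 6 controls, and 579, 313 and 262 CPM at day 9 in the second latest leaf, against 16.4, 7.88 and 4.38 CPM at day 6. The change was nearly the same in both leaves, at 5.31 on the log2 scale (SE 0.623 in the latest and 0.627 in the second latest leaf, edgeR adjusted p = 2.98e-07 and 4.57e-07), and replicate 1 was the highest of its group on both days. Feature 14940 had 1171, 473 and 642 CPM at day 9 in the latest leaf, against 29.5, 17.6 and 13.5 CPM at day 6. The second latest leaf had 373, 132 and 76.5 CPM at day 9, against 5.17, 2.06 and 1.46 CPM at day 6. Its level was lower in the second latest leaf on both days, while the change was 5.23 (SE 0.713) in the latest leaf and 6.02 (SE 0.787) in the second latest leaf. Its range over the other control stages was wider than that of feature 38938, from 0.742 to 48.3 CPM in the latest leaf.

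Features 35137 and 24664 changed by similar amounts in both leaves. Feature 35137 had 217, 128 and 100.4 CPM at day 9 in the latest leaf, against 5.62, 4.90 and 1.19 CPM at day 6, and 183, 117 and 79.6 CPM at day 9 in the second latest leaf, against 4.09, 3.76 and 2.02 CPM at day 6. Feature 24664 had 208, 139 and 100.4 CPM at day 9 in the latest leaf, against 13.0, 6.28 and 2.28 CPM at day 6, and 177, 100.3 and 102 CPM at day 9 in the second latest leaf, against 6.87, 2.65 and 2.47 CPM at day 6. The log2 fold changes were 5.20 in the latest and 5.23 in the second latest leaf for feature 35137, and 4.34 and 4.95 in these leaves for feature 24664, and the days were far apart in both. Feature 23541 had 87.8, 68.9 and 25.2 CPM at day 9 in the latest leaf, against 1.30, 0.966 and 0.595 CPM at day 6, and 66.1, 45.5 and 29.5 CPM at day 9 in the second latest leaf, against 1.23, 1.84 and 0.786 CPM at day 6. Its change was 5.94 (SE 0.469) in the latest leaf, the highest of the 8 there, and 5.13 (SE 0.451) in the second latest leaf.

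Features 38894 and 668 were the least abundant of the 8. Feature 38894 had 12.9, 16.7 and 9.18 CPM at day 9 in the latest leaf, against 0.432, 0.483 and 0 CPM at day 6, and 17.8, 20.9 and 7.51 CPM at day 9 in the second latest leaf, against 0, 0.147 and 0.112 CPM at day 6. The day 6 values lay near the limit of detection, so its fitted changes of 5.25 in the latest and 7.37 in the second latest leaf depend on few counts, and the difference of -2.12 between the leaves was not called (edgeR adjusted p = 0.699). Feature 668 had 17.0, 4.80 and 14.3 CPM at day 9 in the latest leaf, against 0.937, 0.138 and 0.298 CPM at day 6, and 24.0, 9.57 and 18.2 CPM at day 9 in the second latest leaf, against 0.463, 1.03 and 0.112 CPM at day 6. It was the 1 rise of the 8 in which replicate 2 was the lowest at day 9 in both leaves.

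The largest shared falls were named by the same rule from 616 features. Feature 8471 came first, with 0.0637, 0.291 and 0.360 CPM in day 9 controls of the latest leaf, against 10.4, 23.2 and 36.9 CPM in day 6 controls. Its values in the second latest leaf were 0.138, 0.603 and 0.473 CPM at day 9, against 5.94, 32 and 42.7 CPM at day 6. It was near the limit of detection in every day 9 library, with log2 fold changes of -6.74 (SE 0.976, edgeR adjusted p = 6.78e-06) in the latest and -6.18 (SE 0.833, edgeR adjusted p = 3.71e-06) in the second latest leaf. Feature 24319 had 0.510, 6.40 and 2.70 CPM at day 9 in the latest leaf, against 169, 262 and 300.2 CPM at day 6. The second latest leaf had 0.783, 3.79 and 9.87 CPM at day 9, against 125, 205 and 243 CPM at day 6. The fall was -6.45 (SE 0.576) in the latest and -5.35 (SE 0.528) in the second latest leaf, and the 12 libraries of the other control stages lay between 204 and 430.3 CPM in the latest leaf.

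Feature 22256 had the smallest adjusted p of the 8 falls in the latest leaf. It had 1.15, 1.02 and 4.68 CPM at day 9 in the latest leaf, against 111, 156 and 163 CPM at day 6, and 2.12, 4.57 and 10.5 CPM at day 9 in the second latest leaf, against 159, 142 and 139 CPM at day 6. The change was -5.95 (SE 0.414, edgeR adjusted p = 8.98e-11) in the latest leaf and -4.70 (SE 0.37, edgeR adjusted p = 1.89e-09) in the second latest leaf, and the difference of -1.24 was not called (edgeR adjusted p = 0.528). Features 34307 and 6463 were the most abundant of the 8. Feature 34307 had 2.74, 34.0 and 20.3 CPM at day 9 in the latest leaf, against 444, 777 and 872 CPM at day 6, and 7.5, 44.5 and 59.0 CPM at day 9 in the second latest leaf, against 381, 749 and 947 CPM at day 6. Feature 6463 had 3.50, 17.7 and 24.3 CPM at day 9 in the latest leaf, against 309.8, 418 and 494 CPM at day 6, and 2.85, 10.7 and 26.9 CPM at day 9 in the second latest leaf, against 167, 529.6 and 418 CPM at day 6. Both were lowest in replicate 1 on each day and in each leaf, and the days stayed apart by a wide margin.

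The remaining 3 falls were features 47542, 5675 and 4013. Feature 47542 had 0.828, 3.34 and 0.540 CPM at day 9 in the latest leaf, against 25.0, 42.2 and 40.2 CPM at day 6 (log2 fold change -4.76), with a change of -4.37 in the second latest leaf. Feature 5675 had 1.78, 3.93 and 7.65 CPM at day 9 in the latest leaf, against 45.0, 66.1 and 64.0 CPM at day 6 (-3.74), with -3.95 in the second latest leaf. Feature 4013 had 0.892, 4.51 and 2.07 CPM at day 9 in the latest leaf, against 27.8, 41.2 and 51.9 CPM at day 6 (-4.21), with -3.56 in the second latest leaf. Across the 16 named rises and falls, all 3 day 9 libraries lay outside the range of the 12 libraries of the 4 other stages in both leaves, for 8 of 8 rises and 8 of 8 falls. The 16 had been chosen as the largest changes between day 9 and day 6, so these counts describe them and carry no test.

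**Figure D5:**
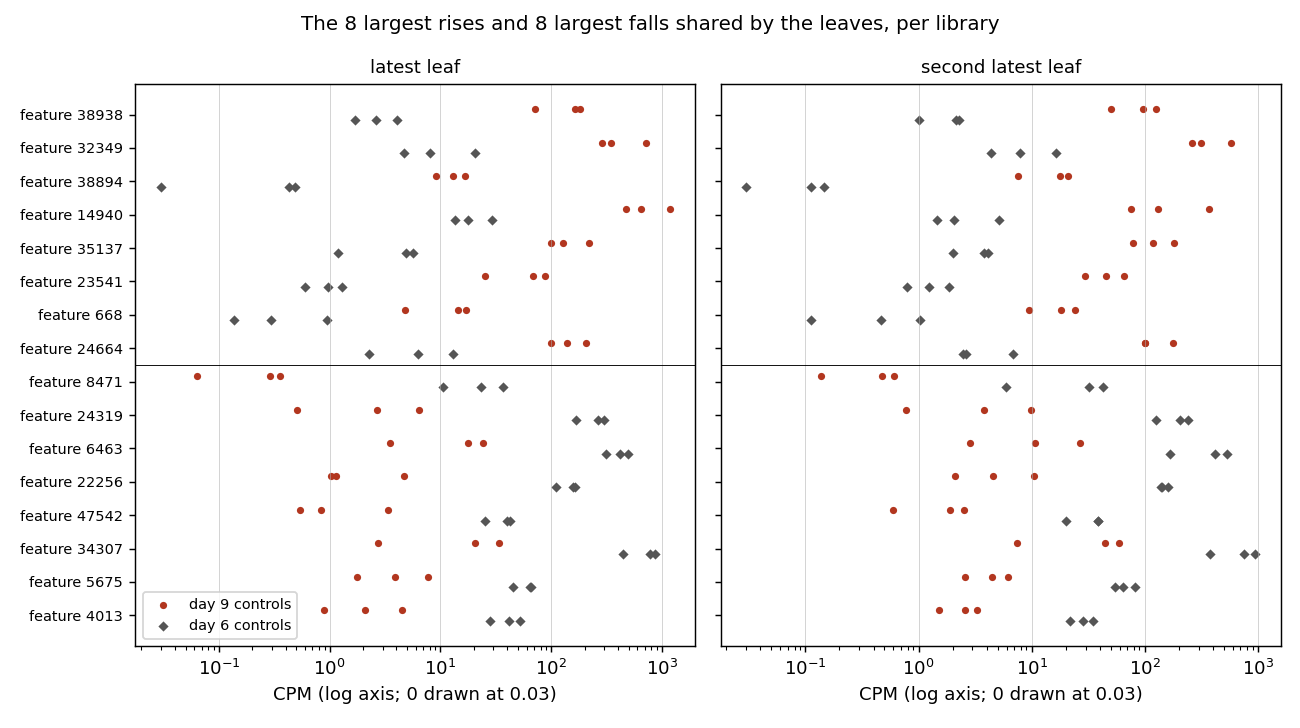
CPM (log axis) of the 8 largest shared rises and 8 largest shared falls in each of the 3 day 9 and 3 day 6 control libraries, with 1 panel per leaf position. The days are separated in every feature and both leaves, and among the rises the 3 day 9 libraries of a feature differ from each other by up to several-fold (183, 162 and 70.9 CPM for feature 38938 in the latest leaf).

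Over all tested features, 26.6% were called in the latest and 18.0% in the second latest leaf. In the highest of the 4 abundance classes the shares were 35.8% and 25.6%. Among the 6 features with the highest mean CPM in the 12 libraries, edgeR called 1 with all control libraries in the fit. So few features give no share to set beside these. The called one was feature 46775. It had 7891, 10357 and 13127 CPM at day 9 in the latest leaf, against 17121, 17363 and 17154 CPM at day 6, and 8215, 10634 and 12647 CPM at day 9 in the second latest leaf, against 16722, 18180.5 and 17007 CPM at day 6. It was lower at day 9 without overlap, by -0.72 on the log2 scale in both leaves (edgeR adjusted p = 0.00273 in the latest and 0.00395 in the second latest leaf), and the day 6 libraries were much closer to each other than the day 9 libraries. In a fit of the 6 libraries of a leaf alone it was not called (edgeR adjusted p = 0.132 and 0.0861).

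Feature 3518, the most abundant, had 37304, 11269 and 47942 CPM at day 9 in the latest leaf, against 33593, 10778 and 13079 CPM at day 6. Its values in the second latest leaf were 8276, 3286 and 10060.5 CPM at day 9, against 14387, 2555 and 6828 CPM at day 6. The days overlapped in both leaves (log2 fold changes 0.75 and -0.14, edgeR adjusted p = 0.587 and 0.947), and replicate 2 was the lowest in each of the 4 groups. Feature 892 had 14453, 26602 and 3882 CPM at day 9 in the latest leaf, against 8001, 10599.8 and 10027 CPM at day 6. The second latest leaf had 24769, 28835 and 21512 CPM at day 9, against 12724, 13873 and 12207 CPM at day 6, without overlap (0.95, edgeR adjusted p = 0.0684). In that leaf it was called by DESeq2 (adjusted p = 0.0367), in the fit of the compared libraries alone (edgeR adjusted p = 0.0305) and with the replicate block (edgeR adjusted p = 0.0483). In the latest leaf the 3 day 9 libraries lay on both sides of the day 6 libraries (0.65, edgeR adjusted p = 0.196), and without replicate 3 of day 9 it was called (1.11, edgeR adjusted p = 0.00371). The other 3 of the 6, features 15934, 53919 and 47025, had log2 fold changes of 0.71 to 0.99 in the latest leaf and of 0.19 to 1.04 in the second latest leaf, and edgeR called none of them (lowest edgeR adjusted p 0.119).

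Among features called in both leaves, chosen after their values were seen, the most abundant after feature 46775 were features 49075 and 36. Feature 49075 had 10578, 8791 and 11919.8 CPM at day 9 in the latest leaf, against 6422, 4348 and 4334 CPM at day 6 (1.05, edgeR adjusted p = 0.00407), and 8037, 5731 and 7002 CPM at day 9 in the second latest leaf, against 4871, 3222 and 3147 CPM at day 6 (0.89, edgeR adjusted p = 0.0196). Feature 36 had 3118, 2941 and 5121 CPM at day 9 in the latest leaf, against 9239, 8276 and 9299.7 CPM at day 6 (-1.26, edgeR adjusted p = 2e-05), and 3494, 3281 and 4356 CPM at day 9 in the second latest leaf, against 9663, 6743 and 8560.4 CPM at day 6 (-1.17, edgeR adjusted p = 8.67e-05). Both changed by about the same amount in the leaves, with no overlap of the days. The called features together held a large part of the RNA: the higher list of the latest leaf took 28.7% ± 1.18 of its counts at day 9 and 16.9% ± 0.949 at day 6, and the lower list took 7.42% ± 0.859 at day 9 and 16.4% ± 2.07 at day 6 (SD, n = 3 each). In the second latest leaf the higher list took 23.3% ± 1.78 at day 9 and 13.04% ± 0.599 at day 6, and the lower list took 6.17% ± 0.848 at day 9 and 12.9% ± 0.941 at day 6 (SD, n = 3 each). The direction of these shares follows from how the lists were made.

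The same days were then read in treated plants, whose libraries the control comparison had not used. Treated plants at day 9 had been without irrigation for 3 days longer than at day 6, and in the latest leaf the day 9 group rested on 2 libraries. Between day 9 and day 6 of treated plants, 2050 of 21204 features (9.67%) were called in the latest leaf, with 1028 higher (4.85%) and 1022 lower (4.82%). For the second latest leaf the number was 2111 (9.96%), with 1160 higher (5.47%) and 951 lower (4.49%). Without replicate 1 of treated day 9 these numbers were 666 in the latest and 1151 in the second latest leaf, and without replicate 3 of treated day 6 the latest leaf had 1328. Of the features called higher in controls and tested in both fits, 853 of 2740 in the latest leaf (31.1%) and 811 of 1976 in the second latest leaf (41.0%) were also called higher in treated plants, which were 83.6% and 70.5% of the treated lists. Of those called lower in controls, 568 of 2786 in the latest leaf (20.4%) and 518 of 1775 in the second latest leaf (29.2%) were also called lower in treated plants, which were 55.6% and 54.9% of the treated lists. Without replicate 1 of treated day 9, calls shared with controls in the same direction numbered 561 in the latest and 873 in the second latest leaf. Calls in the opposite direction numbered 3 and 2 in the latest leaf and 0 and 1 in the second latest leaf. Features called higher in controls had a positive change in treated plants in 86.9% of cases in the latest and 93.7% in the second latest leaf. Those called lower in controls had a negative change in 72.4% and 87.0% of cases. Over all features tested in both fits, the change in treated plants was positive for 49.5% in the latest and 51.3% in the second latest leaf. It was negative for 50.5% and 48.6%.

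The size of the changes was compared as well. The features called higher had a median log2 fold change of 0.90 in controls and 0.44 in treated plants in the latest leaf, and of 0.86 in controls and 0.53 in treated plants in the second latest leaf. The features called lower had medians of -0.85 in controls and -0.30 in treated plants in the latest leaf, and of -0.89 in controls and -0.45 in treated plants in the second latest leaf. The features were chosen in controls, which by itself favours larger values there. The test of the difference, the change in controls minus that in treated plants in 1 fit of 71 libraries, called 297 of 21824 features (1.36%) in the latest leaf (69 higher and 228 lower, 262 of them among the 5563 called in controls) and 1 (0.00458%) in the second latest leaf. Unadjusted p-values under 0.05 were reached by 3435 features in the latest and 2087 in the second latest leaf.

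All 16 named rises and falls were called in treated plants too, in the same direction and in both leaves. They had been chosen as the largest changes in controls, so this count describes them and carries no test. Over all tested features, 4.85% were called higher and 4.82% lower in treated plants in the latest leaf. In the second latest leaf these shares were 5.47% and 4.49%. The 8 rises had log2 fold changes of 4.34 to 5.94 in controls and 3.90 to 4.94 in treated plants in the latest leaf, and of 4.89 to 7.37 in controls and 2.43 to 5.0 in treated plants in the second latest leaf. The 8 falls had -6.74 to -3.74 in controls and -6.11 to -3.20 in treated plants in the latest leaf, and -6.18 to -3.56 in controls and -6.06 to -3.15 in treated plants in the second latest leaf. The largest adjusted p among these was 0.0219 in edgeR. Feature 46775 was called lower in treated plants in the latest leaf (-0.97, edgeR adjusted p = 0.00141) and not in the second latest leaf (-0.51, edgeR adjusted p = 0.0582).

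A longer interval of plant age was available from control libraries outside the day 9 against day 6 contrast. These libraries were in the same fit and share in the spread behind the calls, so the lists compared here are not from separate fits. Between rehydration day 6 and day 0, 1638 features (7.84%) were called in the latest leaf and 1950 (9.33%) in the second latest leaf. Over this interval, among the 2770 features of the latest leaf that were higher at day 9, 167 (6.03%) were called higher and 130 lower, and of the 2793 lower ones, 120 (4.30%) were called lower and 68 higher. In the second latest leaf 124 of the 1987 higher features (6.24%) were called higher and 125 lower, and 83 of the 1784 lower ones (4.65%) were called lower and 62 higher. Over all tested features the log2 fold changes of the intervals correlated with r = -0.003 in the latest and 0.032 in the second latest leaf, a description across features. Over all tested features, 3.57% were called higher and 4.27% lower over this interval in the latest leaf, and 4.46% and 4.87% in the second latest leaf. The shares of the day 9 lists stand beside these as a description, with no test of the difference.

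Replicate libraries of a day differed in how far they had moved. For the 1545 shared rises, the median log2 difference from the day 6 mean was 1.12, 1.03 and 0.84 in replicates 1, 2 and 3 at day 9 in the latest leaf, and 0.12, -0.00 and -0.12 at day 6. In the second latest leaf it was 1.09, 0.97 and 0.82 at day 9 and 0.14, -0.06 and -0.08 at day 6. For the 1173 shared falls it was -1.19, -1.03 and -0.98 at day 9 and -0.17, 0.05 and 0.12 at day 6 in the latest leaf, and -1.01, -0.96 and -0.74 at day 9 and -0.17, 0.08 and 0.08 at day 6 in the second latest leaf. Replicate 1 was the farthest out in each of these sets for the rises and lay lowest for the falls, on both days and in both leaves. It also had the highest score in 4 of 6 control stages in the latest leaf and in 5 of 6 in the second latest leaf. The day 9 group of the latest leaf, which had the widest spread of the 4, holds both the library with the lowest total count of the 12 and the library with the lowest scaling factor.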

How the data were processed

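The series holds 72 leaf libraries of polyA RNA made with a strand-preserving kit, per the labels. What the authors deposited is a table of unnormalised counts per feature. The submitters' processing notes name STAR, featureCounts 2.0.0 and the build IRGSP-1.0. The sources used here do not give the STAR version, the annotation or the strand setting. Overlapping, antisense and near-identical genes could therefore not be told apart.

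These counts were tested with edgeR 4.0.16 under R 4.3.3. The 36 control libraries of both leaves were fitted together with 1 mean per group (filterByExpr, TMM scaling, glmQLFit, glmQLFTest, all two-sided), and day 9 was set against day 6 in each leaf, with an interaction contrast for the difference between leaves. The threshold was an adjusted p of 0.05 (Benjamini-Hochberg). The 35 usable treated libraries had a fit of their own. One treated library (day 9, latest leaf, replicate 2) held 1755 counts and was left out. CPM are scaled by TMM, and log2 CPM use a prior count of 2. Alternatives were relative log expression scaling, no low-count filter, DESeq2 1.42.0, other sets of libraries, a replicate block, a 2-fold minimum and leaving out each library. For the calls in each leaf the block joined same-numbered libraries of day 9 and day 6 within a leaf. For the difference between leaves it joined same-numbered libraries of the leaves within a day.

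The members and lists were chosen with earlier results of these data known. Named are the 8 largest rises and 8 largest falls shared by the leaves (at least 10 CPM, days not overlapping), up to 4 called differences between leaves in each direction (0 qualified), opposite calls, and the 6 most abundant features. The labels do not state that replicates are separate plants, so a p-value here is set against a spread between libraries that may be technical. Replicates were compared in 12 pairs: 0 were identical, with 6.53 to 92.3 as chi-square over its degrees of freedom. Same-numbered libraries of the days correlated by -0.002 to 0.228 in their deviations from group means in the latest leaf. The range was -0.106 to 0.101 in the second latest leaf. Differently numbered libraries of the days ranged from -0.209 to 0.161 in the latest and from -0.286 to 0.235 in the second latest leaf. With 3 same-numbered pairs in each leaf, these values cannot decide whether the numbers pair libraries. Replicate 1 had the highest median for the shared rises and the lowest for the shared falls on both days. Between the leaves the correlations of same-numbered libraries were 0.0974 to 0.353 at day 9 and 0.187 to 0.308 at day 6. Those of differently numbered libraries were -0.312 to 0.100 at day 9 and -0.209 to -0.021 at day 6. The code was tested on simulated data.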

Additional observations from a re-analysis of the deposited data

Results flagged for a closer look

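Feature 10375 was flagged because it was called in opposite directions without overlap of the days. Every day 9 control library lay above every day 6 control library in the latest leaf and below in the second latest leaf. Over all tested features, the days did not overlap for 34.8% in the latest and 30.6% in the second latest leaf. How many did so in opposite directions was not counted. Its change in the latest leaf minus that in the second latest leaf was 0.84 on the log2 scale (SE 0.208). The test of this difference did not pass over all features (edgeR adjusted p = 0.295). DESeq2 called the feature in neither leaf (adjusted p = 0.0768 in the latest and 0.0919 in the second latest leaf).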

How the results depend on the processing

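The calls rest on 3 libraries a group and on the spread shared with the other control stages. Depth limits calls at low counts, where only large changes can pass. With the compared libraries alone, 2762 features were called in the latest leaf, 2206 in the second latest leaf and 1398 in both with the same sign (65.0% of them higher, against 56.8% with all controls). A 2-fold minimum left 2341, 1584 and 1134. The difference between leaves called 256 features without the low-count filter, 11 with DESeq2 and 2 with the replicate block across the leaves of a day.

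Leaving out 1 library gave 3930 to 5494 calls in the latest leaf, 2399 to 4318 in the second latest leaf (lowest without day 6 control replicate 2), 1963 to 2852 in both and 0 to 173 for the difference between leaves. In treated plants it gave 666 to 1793 calls in the latest and 1151 to 2007 in the second latest leaf, and 561 to 1317 and 873 to 1289 calls shared with controls; the lowest of each came without treated day 9 replicate 1, and without treated day 6 replicate 3 the latest leaf had 1328. The cause was not tested.

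The labels do not pair same-numbered libraries. Those of the leaves within a day correlated, with 3 of 3 pairs over 0.1 at day 6 and 2 of 3 at day 9, and those of the days within a leaf in 1 of 3 pairs in each leaf. The replicate block across the days of a leaf gave 5562, 3897 and 2829 calls in the latest leaf, the second latest leaf and both. In treated plants it gave 2027 and 1957, with 1435 and 1295 shared with controls. Relative log expression scaling, no filter, DESeq2 and all 71 libraries gave 5387 to 5767 calls in the latest and 3753 to 4034 in the second latest leaf. The score differences stayed within 2.02 to 2.12 and 1.45 to 1.52.

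Signs turned for 2 uncalled features. Feature 3518 in the second latest leaf moved to 0.047 with the replicate block, 0.60 without day 6 control replicate 1 and 0.19 without day 9 control replicate 2 of that leaf, over a range of -0.57 to 0.60 with 1 library left out. Feature 892 in the latest leaf moved to -0.057 without day 9 control replicate 2, and the range was -0.057 to 1.11. Named features were refitted with relative log expression scaling, DESeq2, the compared libraries alone, the block and 1 library left out. Calls were lost in 26 cases, all in features 10375, 39535 and 46775, and gained in 4, all in feature 892. The 16 rises and falls kept theirs in these fits.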
